A study of Homo sapiens with 9 samples.

Results

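The genes of 9 enzymes of deoxyribonucleotide supply were followed in SKOV3 cells, an ovarian cancer line, out of 58735 genes listed in the count table. They were taken by name for their role in making, protecting or breaking down the building blocks of DNA, and comprise TYMS, TK1, DTYMK, DUT, RRM1, RRM2, RRM2B, CTPS1 and SAMHD1. All 9 were found, and all 9 passed the filter on low counts, with between 643 and 7226 reads per library. The series asked how loss of phosphorylation of CDK9 at tyrosine 19, by an ALK kinase inhibitor or by mutation, altered RNA in these cells.

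RNA-seq libraries were made for 3 conditions, with 3 in each. WT CDK9 cells were the control, the ALK inhibitor group was WT CDK9 cells collected after 24 h with the inhibitor, and the Tyr19Phe CDK9 group (Y19F in the labels) carried CDK9 with phenylalanine in place of that tyrosine. The study describes SKOV3 lines in which CDK9 was depleted by a short hairpin RNA and WT or Tyr19Phe CDK9 was stably put back, but does not state whether these libraries came from those lines. If the groups are separately made lines, line and mutation cannot be told apart. The inhibitor and dose used for these libraries, and a vehicle for the WT group, are not given in the sources used here, and nothing states whether the 3 libraries of a group came from separate cultures, so the p-values measure the spread between libraries, which may be technical.

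Libraries held 18169050 to 20974903 assigned reads in the WT and ALK inhibitor groups and 26485891 to 29320184 in the Tyr19Phe group, so the latter was the more deeply sequenced. Replicate 2 of the ALK inhibitor group (19944 detected genes) and replicate 3 of the Tyr19Phe group (20635) had fewer detected genes than the other libraries of their groups. CDK9 itself was at 43.8 to 59.5 CPM (counts scaled to a common library total) over all libraries, and a gene count shows neither the mutation nor which copy was read. ALK had 0 to 5 reads in each library and was not tested. Of the epithelial markers, keratin genes and ERBB2 were abundant, whereas CDH1 (means of 0.195 to 0.526 CPM) and MUC16 (0.0802 to 0.266 CPM) were near the floor of 3 reads, which is 0.102 to 0.165 CPM. Among 14 marker genes of other cell types only COL1A1 passed the filter and LYZ was at 0 in every library, and the summed level of that list was 104 to 109 CPM in WT, 116 to 151 in the ALK inhibitor group and 32.9 to 46.4 in Tyr19Phe CDK9 cells. The 12 epithelial and ovarian markers summed to 5337 to 5525 CPM in WT, 5866 to 6008 in the ALK inhibitor group and 5180 to 5374 in Tyr19Phe cells. Of the 11 tested, 1 was lower and 2 higher with the inhibitor, and 3 lower and 2 higher in Tyr19Phe against WT (adjusted p under 0.05 in edgeR). Over all tested genes these shares were 4.55% and 18%. The part of these marker differences in the results was not tested.

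Cells make deoxyribonucleotides mainly by reducing ribonucleotides. Ribonucleotide reductase consists of a large catalytic subunit, RRM1, and a small radical-bearing subunit, which is RRM2 in dividing cells or the p53-inducible RRM2B. Thymidine nucleotides need further steps, in which DUT turns dUTP into dUMP and so keeps uracil out of DNA, TYMS methylates dUMP to dTMP, TK1 makes dTMP from salvaged thymidine, and DTYMK phosphorylates dTMP to dTDP. CTPS1 makes CTP from UTP, and SAMHD1 hydrolyses dNTPs and so works against the others. Several of these genes are known for transcription that peaks around S phase under E2F factors, and promoters of cell cycle genes often carry CCAAT boxes, which the factor NF-Y binds.

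Promoters are shown for TYMS and TK1, both higher in Tyr19Phe than in inhibitor libraries, for RRM2, lower in Tyr19Phe than in WT cells, and for SAMHD1, lower in Tyr19Phe than in inhibitor libraries. CTPS1 and DTYMK also had called differences and are not shown. Each is the 250 bases before a RefSeq start in GRCh38.p14, read 5′ to 3′ on the gene's strand, with capitals marking an E2F-type match (GCGGGAAA, the reverse complement of TTTCCCGC) or a CCAAT box (CCAAT or, on the other strand, ATTGG). The windows are chr18:657403-657652 on the plus strand for TYMS, chr17:78187053-78187302 on the minus strand for TK1, chr2:10122489-10122738 on the plus strand for RRM2 and chr20:36951709-36951958 on the minus strand for SAMHD1.
TYMS: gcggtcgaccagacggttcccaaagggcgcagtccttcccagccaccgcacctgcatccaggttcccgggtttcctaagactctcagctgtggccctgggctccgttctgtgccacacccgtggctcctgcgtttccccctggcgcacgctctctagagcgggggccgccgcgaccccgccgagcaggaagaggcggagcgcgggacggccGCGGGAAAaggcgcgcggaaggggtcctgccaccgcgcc
TK1: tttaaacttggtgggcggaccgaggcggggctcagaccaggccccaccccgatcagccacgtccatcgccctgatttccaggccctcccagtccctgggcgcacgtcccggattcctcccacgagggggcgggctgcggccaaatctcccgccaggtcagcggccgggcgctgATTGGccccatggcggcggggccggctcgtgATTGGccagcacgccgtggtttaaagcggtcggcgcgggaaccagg
RRM2: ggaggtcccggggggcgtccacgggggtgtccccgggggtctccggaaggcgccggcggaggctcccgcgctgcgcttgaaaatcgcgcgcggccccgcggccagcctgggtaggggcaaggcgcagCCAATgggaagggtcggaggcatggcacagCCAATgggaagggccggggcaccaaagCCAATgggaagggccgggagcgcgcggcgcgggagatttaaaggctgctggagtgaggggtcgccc
SAMHD1: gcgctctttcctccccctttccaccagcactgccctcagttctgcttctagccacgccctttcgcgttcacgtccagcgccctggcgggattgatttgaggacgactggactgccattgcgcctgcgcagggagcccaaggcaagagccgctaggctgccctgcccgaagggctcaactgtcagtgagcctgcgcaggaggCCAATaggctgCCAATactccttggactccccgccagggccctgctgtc

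In TYMS the E2F letters lay 39 to 32 bases before the start and no CCAAT was present. The TK1 window held 2 CCAAT matches on the opposite strand, beginning 77 and 46 bases before the start. RRM2 held CCAAT 3 times, beginning 123, 93 and 66 bases before its start, and SAMHD1 had matches beginning at 49 and 38 bases. TK1 and RRM2 have a further RefSeq start each, whose windows are not shown, and all 4 windows shown overlap the gene as the count table lists it, whose outermost start lies farther upstream. Of the 9 members, 8 had an entry in this table, all except RRM2B. E2F letters (TTTCCCGC, TTTCGCGC, TTTGCCGC or TTTGGCGC on either strand) occurred in 2 of the 8, TYMS and DUT, against 3.4% of 27305 genes. CCAAT occurred in 5 of 8 (DTYMK, RRM1, RRM2, SAMHD1 and TK1) against 37% of genes, the GC box GGGCGG in 6 of 8 against 46.2%, and the cell cycle homology region TTTGAA in 2 of 8 (DUT and RRM1) against 16.1%. A gene counted here if any of its windows matched, and the 8 members had 14 windows. By window, E2F letters occurred in 2 of 14 against 2.79% of 35116 windows, and CCAAT in 6 of 14 against 32%. The GC box occurred in 9 of 14 against 42.6%, and TTTGAA in 2 of 14 against 13.3%. No match of one motif overlapped a match of another in the members' windows. These letter matches describe the windows and are not mapped binding sites.

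The levels were first ordered within WT CDK9 cells as CPM per kilobase of the listed gene length, the scale on which genes of different length can be compared. TK1 was highest at 85.5 ± 4.0 CPM per kilobase (SD, n = 3), followed by RRM1 at 60.8 ± 3.46 and RRM2 at 35.6 ± 0.854. DTYMK (31.9 ± 1.29) and DUT (29.9 ± 2.25) came next and their libraries overlapped, and TYMS lay below them at 25.5 ± 0.644. CTPS1 (11.1 ± 0.133) and RRM2B (10.9 ± 0.769) could not be separated, and SAMHD1 was lowest at 3.02 ± 0.0293. The listed length adds up exons of all annotated transcripts, so a gene whose cells use a short transcript reads too low on this scale. RRM2 is listed with 5323 bases but has 9153 exon bases in GENCODE 44, so its place in the order depends on the annotation. CTPS1 and SAMHD1 have the longest listed lengths of the 9, 11517 and 11261 bases, and were at 128 and 34.0 CPM in WT before division by length. The place of CTPS1 thus also depends on the listed length.

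Order changed in the middle of the scale. In the ALK inhibitor group RRM2B (11.2 ± 0.315 CPM per kilobase) exceeded CTPS1 (9.35 ± 1.17) without overlap, and DTYMK and DUT were again neighbours that overlapped. Among Tyr19Phe libraries DTYMK (32.2 ± 1.2), RRM2 (31.3 ± 0.971), TYMS (29.9 ± 2.34) and DUT (28.4 ± 1.33) formed a chain in which each overlapped the next, and CTPS1 and RRM2B overlapped as well. TK1 and RRM1 stood first and second, and SAMHD1 last, in all 3 groups.

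**Figure D1:**
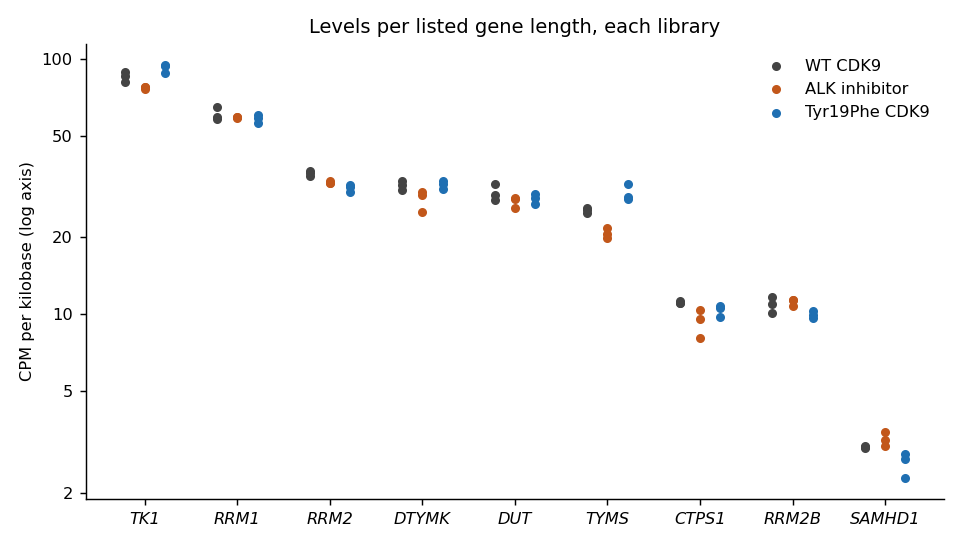
Levels of the 9 enzymes in every library as CPM per kilobase of listed gene length, on a log axis, with genes ordered by their WT CDK9 mean and colours for the 3 groups (3 points each). TK1 is highest and SAMHD1 lowest in every group, and TYMS moves from 20.8 CPM per kilobase in the ALK inhibitor group to 29.9 in Tyr19Phe CDK9 cells.

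All 9 genes were then compared between groups. Values below are CPM after TMM scaling, in the order of replicates 1, 2 and 3, and log2 fold changes come from edgeR's quasi-likelihood test over all 9 libraries, with p-values adjusted by Benjamini-Hochberg over 16350 tested genes and a gene called at an adjusted p under 0.05. Both comparisons with WT share the same WT libraries. With the ALK inhibitor, 4.55% of all tested genes were called (2.73% lower, 1.82% higher), and of the 9 enzymes 2 were lower and 0 higher. At an unadjusted p under 0.05, 5 enzymes were lower and 0 higher, where 15.1% of all genes passed in either direction, and DESeq2 called 2 lower and 0 higher. In Tyr19Phe against WT CDK9 cells 18% of genes were called (10.4% lower, 7.61% higher), and 1 enzyme was lower and 1 higher. Between Tyr19Phe and ALK inhibitor libraries 20.7% of genes were called (11.1% lower, 9.57% higher), and 1 enzyme was lower and 3 were higher. At an unadjusted p under 0.05, 2 enzymes were lower and 2 higher in Tyr19Phe against WT cells, where 29% of all genes passed, and 2 were lower and 4 higher between the perturbed groups, where 31.5% passed. DESeq2 called the same enzymes in all 3 comparisons except for DTYMK in the last.

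**Figure D2:**
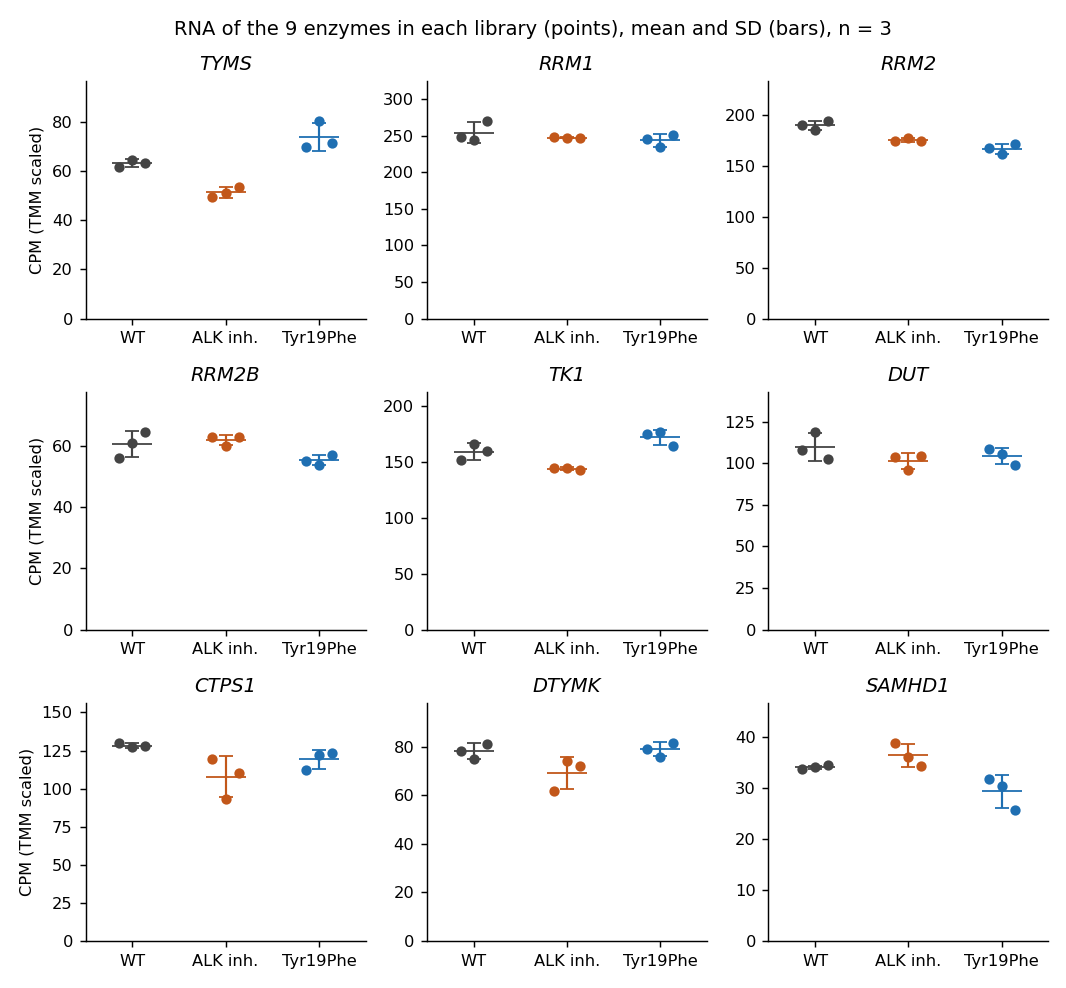
TMM-scaled CPM of each enzyme in the 9 libraries (points, replicates 1 to 3 from left to right) with the group mean and SD (bars, n = 3), each panel on its own axis from 0. TYMS shows 3 separate groups, with ALK inhibitor libraries lowest at 49.2 to 53.6 CPM and Tyr19Phe libraries highest at 69.7 to 80.4, whereas RRM1 libraries of the 3 groups overlap.

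TYMS, thymidylate synthase and the target of fluoropyrimidine drugs, was the only member called in both comparisons with WT, lower with the inhibitor and higher in Tyr19Phe cells, although each call was lost when some single libraries were left out. It was at 61.4, 64.6 and 63.1 CPM in WT CDK9 cells, at 49.2, 51.2 and 53.6 CPM with the ALK inhibitor, and at 69.7, 80.4 and 71.3 CPM in Tyr19Phe CDK9 cells. Every ALK inhibitor library was below every WT library, and every Tyr19Phe library was above. With the inhibitor TYMS fell by 18.6% (log2 fold change -0.30, SE 0.07, 95% interval -0.45 to -0.15, adjusted p = 0.0112 in edgeR). In Tyr19Phe cells it rose by 17.1% (log2 fold change 0.23, SE 0.07, interval 0.08 to 0.37, adjusted p = 0.0217 in edgeR). The direct comparison of Tyr19Phe with ALK inhibitor libraries gave 0.52 (SE 0.07, interval 0.38 to 0.67, adjusted p = 1.31e-06 in edgeR), a level 43.8% higher.

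Calls for TYMS against WT were near the threshold. With the inhibitor the call was lost without WT replicate 2 or without ALK inhibitor replicate 1 (highest adjusted p = 0.079 in edgeR), and in Tyr19Phe cells without WT replicate 1, WT replicate 3 or Tyr19Phe replicate 2 (highest adjusted p = 0.168 in edgeR), whereas the direct difference was called in 6 of 6 such fits. Neighbouring genes and an overlapping gene were also read. The TYMS gene, ENSG00000176890 at chr18:657604-673578 on the plus strand, shares 967 exon bases (39.9% of its exon length) with ENOSF1 on the opposite strand and 193 (7.97%) with the RNA gene TYMSOS, and whether reads were counted by strand is not given in the sources used here. ENOSF1 was at 37.2 ± 1.89 CPM in WT, 32.7 ± 3.17 with the inhibitor and 40.8 ± 2.88 in Tyr19Phe cells. Its log2 fold changes were -0.19 (adjusted p = 0.334) and 0.13 (adjusted p = 0.348) against WT, and 0.32 (SE 0.09, adjusted p = 0.00965) between the perturbed groups, all from edgeR. The 27 other tested genes within 5 Mb of TYMS, ENOSF1 among them, had median log2 fold changes of -0.02 with the inhibitor, 0.13 in Tyr19Phe cells and 0.24 between the perturbed groups. In the same order 1 was called lower and 0 higher, 1 lower and 3 higher, and 0 lower and 6 higher. Of all tested genes 4.55%, 18% and 20.7% were called in these comparisons. The part of the neighbour values in those of TYMS was not tested.

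TK1, the S phase thymidine kinase of the salvage route, followed the same order of groups with smaller differences. Its CPM were 151, 166 and 160 in WT cells, 145, 144 and 142 with the inhibitor, and 175, 177 and 164 in Tyr19Phe cells. ALK inhibitor libraries all lay below WT, while Tyr19Phe and WT libraries overlapped. Neither comparison with WT passed the test, with log2 fold changes of -0.15 (SE 0.05, adjusted p = 0.107 in edgeR) for the inhibitor and 0.11 (SE 0.05, adjusted p = 0.119 in edgeR) for Tyr19Phe. The latter passed when libraries were scaled by their totals alone (adjusted p = 0.0475 in edgeR). Between Tyr19Phe and ALK inhibitor libraries TK1 was 19.6% higher (log2 fold change 0.26, SE 0.05, interval 0.16 to 0.36, adjusted p = 2.12e-04 in edgeR), a difference called in 6 of 6 fits that left out a library. Neighbours of TK1 on chromosome 17 (183 genes within 5 Mb) had a median of 0.01 in that comparison.

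DTYMK, thymidylate kinase, was at 78.5, 75.1 and 81.3 CPM in WT cells, 61.8, 74.0 and 72.1 CPM with the inhibitor, and 79.3, 76.0 and 81.6 CPM in Tyr19Phe cells. Inhibitor libraries were lower than both other groups without overlap, and replicate 1 was lowest. Its difference from WT, as a log2 fold change, was -0.18 for the inhibitor (interval -0.32 to -0.03, adjusted p = 0.187 in edgeR) and 0.01 for Tyr19Phe (interval -0.13 to 0.15, adjusted p = 0.937 in edgeR). The direct difference of 0.19 reached an adjusted p of 0.0487 in edgeR, just under the threshold. That call held in 1 of 6 fits with a library left out, the one without ALK inhibitor replicate 2, and was lost with DESeq2. Without ALK inhibitor replicate 1 the direct difference was 0.11 (adjusted p = 0.327 in edgeR) and the difference of the inhibitor from WT was -0.10.

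DUT, dUTPase, did not pass the test in any comparison. It was at 108, 119 and 103 CPM in WT cells, 104, 95.7 and 105 CPM with the inhibitor and 109, 105 and 99.1 CPM in Tyr19Phe cells, and all groups overlapped. Intervals of its log2 fold changes were -0.24 to 0.01 with the inhibitor, -0.20 to 0.05 in Tyr19Phe cells and -0.08 to 0.17 between them. DUT shares 533 exon bases (14.5%) with the antisense gene DUT-AS1, which had 6 to 24 reads per library.

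Of the 3 ribonucleotide reductase genes, RRM2 alone passed the test in any comparison, and its fold change was not shown to differ from those of RRM1 and RRM2B. RRM2, the small subunit that limits reductase activity through the cell cycle, was at 190, 185 and 194 CPM in WT cells, 174, 178 and 175 CPM with the inhibitor, and 167, 161 and 171 CPM in Tyr19Phe cells. The libraries of the 3 groups did not overlap, with WT highest and Tyr19Phe lowest. In Tyr19Phe cells RRM2 fell by 12.2% (log2 fold change -0.19, SE 0.05, interval -0.28 to -0.09, adjusted p = 0.00312 in edgeR), and this call held in 6 of 6 fits that left out a library. With the inhibitor the log2 fold change was -0.11 (interval -0.21 to -0.02, adjusted p = 0.202 in edgeR), and between the perturbed groups it was -0.07 (interval -0.17 to 0.02, adjusted p = 0.28 in edgeR). The 33 tested neighbours of RRM2 on chromosome 2 had a median of -0.07 in Tyr19Phe cells against WT. Of these neighbours 5 were called lower and 1 higher, where 10.4% and 7.61% of all tested genes were called lower and higher.

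RRM1, the catalytic subunit, had the smallest changes, in that the largest of its 3 fold changes was below that of every other member. Its CPM were 248, 244 and 270 in WT cells, 247, 247 and 247 with the inhibitor and 245, 234 and 251 in Tyr19Phe cells. Groups overlapped in every comparison, and the intervals of its log2 fold changes were -0.13 to 0.05 with the inhibitor, -0.15 to 0.03 in Tyr19Phe cells and -0.11 to 0.07 between them. RRM2B, the alternative small subunit, was at 56.1, 61.1 and 64.6 CPM in WT cells, 62.8, 59.9 and 63.0 CPM with the inhibitor and 55.1, 53.9 and 57.2 CPM in Tyr19Phe cells. It passed no test, with log2 fold changes of 0.03 (adjusted p = 0.909), -0.13 (adjusted p = 0.234) and -0.16 (adjusted p = 0.112) in edgeR, the last between perturbed groups whose libraries did not overlap.

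CTPS1, a CTP synthase, fell with the inhibitor. It was at 130, 127 and 128 CPM in WT cells, 120, 93.1 and 110 CPM with the inhibitor and 112, 122 and 124 CPM in Tyr19Phe cells. All inhibitor libraries were below WT, but replicate 2, a library with fewer detected genes, was by far the lowest. The log2 fold change was -0.25 (SE 0.07, interval -0.39 to -0.12, adjusted p = 0.0188 in edgeR). Without ALK inhibitor replicate 2 it was -0.16 and no longer called (adjusted p = 0.231 in edgeR), and the call was also lost without WT replicate 1. In Tyr19Phe cells all libraries lay below WT, with a log2 fold change of -0.10 (interval -0.24 to 0.03, adjusted p = 0.305 in edgeR). Between Tyr19Phe and inhibitor libraries it was 0.15 (adjusted p = 0.113 in edgeR), and this moved to 0.23 and was called without ALK inhibitor replicate 1 (adjusted p = 0.0169 in edgeR) but was 0.05 without replicate 2. The other CTP synthase, CTPS2, is in the pyrimidine list below and is named after its values were seen. CTPS2 was at 38.9 CPM in WT and 38.7 with the inhibitor (log2 fold change -0.01, adjusted p = 0.983 in edgeR).

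SAMHD1, the dNTP hydrolase, differed between the perturbed groups. It was at 33.7, 34.0 and 34.4 CPM in WT cells, 38.8, 36.1 and 34.3 CPM with the inhibitor and 31.8, 30.4 and 25.7 CPM in Tyr19Phe cells. Tyr19Phe libraries were below those of both other groups, and replicate 3, the Tyr19Phe library with fewer detected genes, was lowest. Between Tyr19Phe and inhibitor libraries the log2 fold change was -0.31 (SE 0.09, interval -0.50 to -0.12, adjusted p = 0.0155 in edgeR), 19.5% lower. This call was lost without Tyr19Phe replicate 3 or without ALK inhibitor replicate 1 (highest adjusted p = 0.134 in edgeR). Against WT it was -0.22 in Tyr19Phe cells (interval -0.41 to -0.02, adjusted p = 0.119, and -0.12 without Tyr19Phe replicate 3) and 0.10 with the inhibitor (interval -0.10 to 0.29, adjusted p = 0.728), both from edgeR. SAMHD1 shares 1068 exon bases with TLDC2 on the opposite strand, which had 0 to 2 reads per library.

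**Figure D3:**
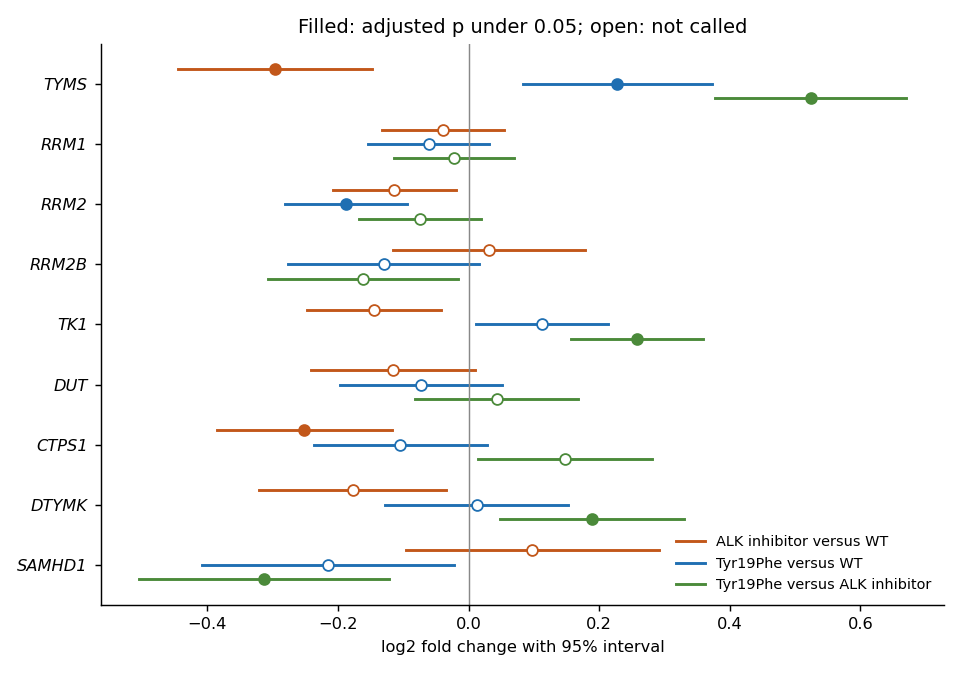
Log2 fold change of each enzyme (points) with its 95% interval (lines) in the 3 comparisons, filled where the adjusted p was under 0.05. TYMS lies left of 0 with the ALK inhibitor (-0.30) and right of 0 in Tyr19Phe CDK9 cells (0.23), RRM2 is called only in Tyr19Phe against WT, and all 3 RRM1 intervals cover 0.

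Over the set, 7 of 9 log2 fold changes were below 0 with the inhibitor, with a median of -0.12 against -0.0010 over all tested genes. In Tyr19Phe cells 6 of 9 were below 0, with a median of -0.07 against 0.0035. Of the 9, 5 enzymes (TYMS, RRM2, TK1, CTPS1 and DTYMK) had libraries that did not overlap between inhibitor and WT, beside 19.6% of all tested genes. For Tyr19Phe and WT this held for 4 enzymes (TYMS, RRM2, CTPS1 and SAMHD1), against 32.6% of genes. Between the perturbed groups it held for 6 (TYMS, RRM2, RRM2B, TK1, DTYMK and SAMHD1), against 34.4% of genes. Spread between libraries of a group ran from 0.196% of the mean for RRM1 with the inhibitor to 12.5% for CTPS1 with the inhibitor.

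Ratios between enzymes within a library do not depend on library scaling, and 5 were compared as reads per kilobase. With 3 libraries against 3, the exact two-sided permutation test cannot give a p below 0.1, so none could pass 0.05, and the adjusted p over the 15 tests was at least 0.136. RRM2 to RRM1 was 0.601, 0.596 and 0.563 in WT cells, 0.551, 0.565 and 0.554 with the inhibitor, and 0.536, 0.540 and 0.535 in Tyr19Phe cells. The Tyr19Phe ratios were below all others (exact p = 0.1, adjusted p = 0.136), while inhibitor and WT libraries overlapped. For RRM2B to RRM2, geometric means were 0.306 in WT, 0.339 with the inhibitor and 0.319 in Tyr19Phe cells, and the inhibitor libraries were above all others.

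The thymidylate ratios were spread further. TK1 to TYMS had geometric means of 3.35 in WT, 3.72 with the inhibitor and 3.10 in Tyr19Phe cells, with inhibitor libraries above both other groups. DUT to TYMS was 1.18, 1.24 and 1.09 in WT cells, 1.42, 1.26 and 1.31 with the inhibitor, and 1.05, 0.881 and 0.935 in Tyr19Phe cells, so that the 3 groups did not overlap (exact p = 0.1, adjusted p = 0.136 in each pair). SAMHD1 to RRM2 had geometric means of 0.0848, 0.0980 and 0.0828 in the same order, and inhibitor libraries were the highest, while Tyr19Phe libraries ranged from 0.0708 to 0.0899 around the WT values.

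**Figure D4:**
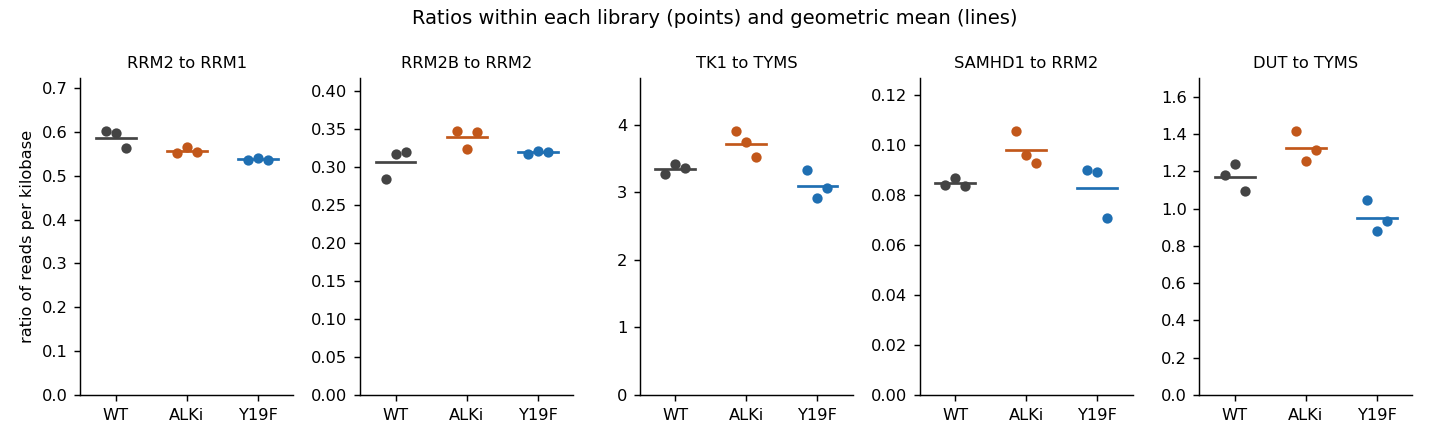
The 5 ratios of reads per kilobase within each library (points, replicates 1 to 3 from left to right) and their geometric means (lines) for WT CDK9, ALK inhibitor (ALKi) and Tyr19Phe CDK9 (Y19F) libraries, each axis from 0. DUT to TYMS separates the 3 groups, with geometric means of 1.17, 1.33 and 0.952, and RRM2 to RRM1 is lowest in Tyr19Phe libraries at 0.537.

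Genes whose log2 CPM over the 9 libraries most resembled each enzyme were listed among 11140 other genes that averaged 5 CPM or more, as a description in which group differences weigh most. TYMS was nearest to TCOF1 (Pearson r = 0.985), STX11 (0.976) and ATAD3B (0.973), none of them on chromosome 18. RRM2 was nearest to NARS (0.983), DDX3X (0.982) and CALB1 (0.977), and TK1 to FAM86C1 (0.978), MYH9 (0.971) and ACOT7 (0.964). For CTPS1 these were GK5 (0.948), NOLC1 (0.936) and HELLS (0.931), and for SAMHD1 FAM114A1 (0.965), PDCL (0.958) and GCNT2 (0.958). DTYMK resembled MAP3K8 (0.949), TXNRD3 (0.926) and PAWR (0.914), and RRM2B resembled FAM168A (0.955), AK3 (0.950) and PRKCZ (0.944). Lower values were found for DUT, with PTRH2 (0.935), FAIM (0.935) and COL4A4 (0.908), and for RRM1, with ATP2B1 (0.928), RPAP3 (0.908) and GPD1L (0.887). No enzyme was among the 3 nearest genes of another. Between the enzymes themselves the correlation was highest for TYMS with TK1 (0.934) and lowest for TYMS with SAMHD1 (-0.776).

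The surrounding pathways were read from 7 lists with 62 genes, all tested. With the inhibitor edgeR called 1 of the 62 lower and 0 higher, 1.61% in all beside 4.55% of all genes, with 12 lower and 2 higher at an unadjusted p under 0.05 and 2 lower and 0 higher by DESeq2. That gene was HPRT1, which salvages hypoxanthine and guanine, at 85.2 CPM in WT and 69.8 with the inhibitor (log2 fold change -0.29, adjusted p = 0.00708 in edgeR). In Tyr19Phe cells 14 were lower and 6 higher, 32.3% in all beside 18% of all genes. In the direct comparison of Tyr19Phe with inhibitor libraries 11 were lower and 12 higher, 37.1% in all beside 20.7% of all genes.

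De novo purine synthesis had 4 of 13 genes lower and 2 higher in Tyr19Phe against WT cells, beside 10.4% and 7.61% of all tested genes. PAICS, which acts in the middle of the pathway, fell from 401 to 308 CPM (log2 fold change -0.38, adjusted p = 7.88e-09 in edgeR). ADSS1, the muscle-type adenylosuccinate synthase, fell by 1.49 on the log2 scale but was at 2.81 CPM in WT and 0.997 in Tyr19Phe cells, while ADSS2, its widely expressed counterpart, rose by 0.26. ADSL, which acts with both in AMP synthesis, rose by 0.89 from a level of 4.44 CPM. The other lower genes, GMPS and PPAT, are named after their values were seen. Of the 5 genes of de novo pyrimidine synthesis edgeR called 0 in either comparison with WT, with 2 lower with the inhibitor and 1 higher in Tyr19Phe cells both at an unadjusted p under 0.05, of which DESeq2 called 1 in each. CAD, which carries out its first steps, and DHODH were higher in Tyr19Phe than in inhibitor libraries (log2 fold changes 0.26 and 0.50), and these 2 were chosen after their values were seen.

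In Tyr19Phe against WT cells 10.4% of all tested genes were called lower and 7.61% higher, the shares to set beside each list. Salvage had 3 of 11 genes lower in this comparison and 1 higher. HPRT1 (log2 fold change -0.19), ADK (-0.31) and APRT (-0.27), which recover purine bases and adenosine, were lower, and TK2, the mitochondrial thymidine kinase, was higher (0.35). Among nucleotide kinases and the dCMP deaminase 4 of 8 were lower and 0 higher by both edgeR and DESeq2, with 4 and 1 at an unadjusted p under 0.05. These were NME4, a mitochondrial nucleoside diphosphate kinase (from 14.2 to 4.67 CPM, log2 fold change -1.60, adjusted p = 1.00e-08 in edgeR), DCTD, which deaminates dCMP to the TYMS substrate dUMP (from 118 to 94.9 CPM, log2 fold change -0.31, adjusted p = 4.67e-05 in edgeR), AK4 (-0.22) and GUK1 (-0.24). DCTD thus fell where TYMS rose, and between Tyr19Phe and inhibitor libraries it was lower too (-0.41, adjusted p = 5.70e-07 in edgeR).

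For the folate enzymes that feed TYMS, 1 of 11 was lower and 2 were higher in Tyr19Phe against WT cells. Beside this list and the next 2 stand 10.4% of all tested genes called lower and 7.61% higher. FPGS, which traps folates in the cell by adding glutamates, rose from 80.3 to 103 CPM (log2 fold change 0.36, adjusted p = 2.57e-05 in edgeR), SHMT2 rose by 0.16 and MTHFD1 fell by 0.15 on the log2 scale. Reductants of ribonucleotide reductase had 2 of 7 lower and 0 higher by both tools, with 3 and 2 at an unadjusted p under 0.05. The lower ones were GSR, glutathione reductase (from 123 to 83.6 CPM, log2 fold change -0.56, adjusted p = 6.58e-09 in edgeR), and TXNRD1, thioredoxin reductase (from 692 to 550 CPM, log2 fold change -0.33, adjusted p = 1.80e-07 in edgeR). In the list of dNTP sanitation and breakdown 1 of 7 was higher and 0 lower by both tools, with 1 and 1 at an unadjusted p under 0.05. It was CDA, cytidine deaminase, from 92.1 to 125 CPM (log2 fold change 0.44, adjusted p = 4.04e-07 in edgeR).

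**Figure D5:**
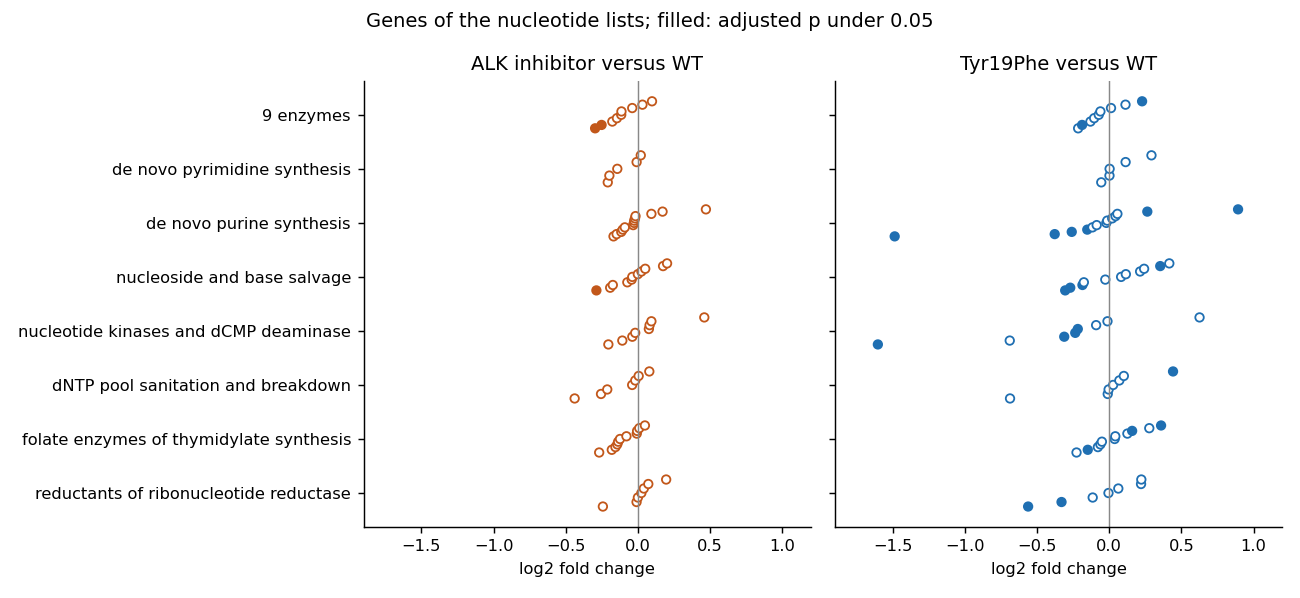
Log2 fold changes of the 9 enzymes and of the genes of 7 nucleotide pathway lists (1 point per gene, sorted within a row) for the ALK inhibitor (left) and Tyr19Phe CDK9 (right) against WT CDK9, filled where the adjusted p was under 0.05. With the inhibitor the only filled points are TYMS and CTPS1 among the 9 enzymes and HPRT1 among salvage genes, and in Tyr19Phe cells 20 list genes are filled, with NME4 at -1.60 and ADSS1 at -1.49 farthest to the left.

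Since several of the enzymes vary with the cell cycle, phase genes were read beside them. Of 40 S phase genes edgeR and DESeq2 each called 3 lower and 0 higher with the inhibitor (9 and 0 at an unadjusted p under 0.05, median log2 fold change -0.09), 5 lower and 2 higher in Tyr19Phe cells (median -0.04), and 1 lower and 4 higher between Tyr19Phe and inhibitor libraries (median 0.06), where 4.55%, 18% and 20.7% of all tested genes were called. Their summed level was 3833 to 3868 CPM in WT, 3608 to 3663 with the inhibitor and 3683 to 3780 in Tyr19Phe libraries. Of 54 G2/M genes 3 were lower and 0 higher with the inhibitor (11 and 0 at an unadjusted p under 0.05, 4 and 0 by DESeq2), and 11 lower and 3 higher in Tyr19Phe cells, beside the same 4.55% and 18% of all genes. Between Tyr19Phe and inhibitor libraries 8 of the G2/M genes were lower and 6 higher in edgeR (median log2 fold change -0.04), beside 20.7% of all genes. Their summed level was 9790 to 9881 CPM in WT, 9242 to 9571 with the inhibitor and 9317 to 9537 in Tyr19Phe libraries, so both perturbed groups lay below WT. The S phase sum thus ran in the order WT, Tyr19Phe, inhibitor from high to low. By group mean TYMS and TK1 were highest in Tyr19Phe cells and RRM2 lowest there. The difference of TK1 from WT and that of RRM2 from the inhibitor group were not called. Fewer cells in S phase and less RNA per cell cannot be told apart in these bulk libraries, and the part of cell cycle distribution in the enzyme values was not tested.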

How the data were processed

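RNA was extracted with a column kit and sequenced by a commercial provider, per the labels and the study's methods. The authors deposited whole-number read counts per gene for the 9 libraries, and the submitters' processing notes name CASAVA, HISAT2 2.0.5, featureCounts 1.5.0-p3 and hg38. The annotation release, and whether reads were counted by strand, are not given in the sources used here. Gene lengths and positions came from the same table, and all 9 members lay on the same chromosome with a nearby start in GENCODE 44. Exon lengths were not required to match.

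Counts were used as deposited. Genes were kept with filterByExpr (minimum count 10, minimum total 15), scaled by TMM, and fitted in edgeR 4.0.16 (quasi-likelihood, R 4.3.3) with group as the only term over all 9 libraries, giving 6 residual degrees of freedom. The quasi-likelihood test draws each gene's spread toward that of the other genes. Its p-values and the intervals therefore rest on more degrees of freedom than these 6, and depend on that borrowing. A gene was called at an adjusted p under 0.05 (Benjamini-Hochberg). SEs were derived from the fold change and its F value. CPM per kilobase used the listed gene length, and likeness used log2 CPM with a prior count of 2. The study names DESeq2, which was run as an alternative (version 1.42.0), with other scalings, filters, thresholds, a replicate block and each library left out. Ratios were compared by exact permutation. The 95% intervals of log2 fold changes were built from these SEs and so include the fitted spread between libraries. A level of 3 reads was 0.102 to 0.165 CPM. Promoter sequences are those of RefSeq (GRCh38.p14).

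The 9 members and all gene lists were chosen with earlier results of these data known. Named list genes are at most 4 per list, those called against WT with the smallest adjusted p. Of the marker lists, a few genes were named after their values were seen, and further pathway genes are marked as such.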

Additional observations from a re-analysis of the deposited data

How the results depend on the processing

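Of 486 log2 fold changes of members under the alternatives, 447 kept their direction and their side of the threshold, 24 lost a call, 9 gained one and 6 changed sign, and the cause was not tested. These 486 include the main fold changes read again at an adjusted p under 0.01 and at an unadjusted p under 0.05. There the direction could not change, and most of the gained calls and some of the lost ones came from these other thresholds alone. With a replicate block the counts of called members were 2 lower and 0 higher for the inhibitor, 1 and 1 for Tyr19Phe against WT, and 1 and 3 between the perturbed groups, so the block changed no call of a member, and it moved all called genes from 744, 2940 and 3387 to 818, 3076 and 3465. Same-numbered libraries had correlations of -0.0116 to 0.026 between their deviations from the group means, and a library correlated best with its own number in 8 of 18 cases, so the numbers were not taken as pairs. Scaling by library totals alone gave 2 higher in Tyr19Phe against WT. At an adjusted p under 0.01 the counts were 0 lower with the inhibitor, 0 higher in Tyr19Phe against WT and 0 lower between the perturbed groups, leaving RRM2 in Tyr19Phe against WT, and TYMS and TK1 in the direct comparison. At an unadjusted p under 0.05 they were 5 lower with the inhibitor, 2 lower and 2 higher in Tyr19Phe against WT, and 2 lower between the perturbed groups. Without both libraries that had fewer detected genes, 1 member (TYMS) was lower with the inhibitor and 0 were lower between the perturbed groups. Leaving out 1 library at a time gave 1 to 2 members lower with the inhibitor, 0 to 1 higher in Tyr19Phe against WT, 0 to 1 lower and 2 to 3 higher between the perturbed groups.

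Over fits with 1 library left out, the log2 fold change of RRM1 ranged from -0.065 to 0.011 and that of RRM2B from -0.018 to 0.083 with the inhibitor, that of DTYMK from -0.0133 to 0.044 in Tyr19Phe against WT (-0.0056 without both libraries that had fewer detected genes, -0.0133 without WT replicate 2 and -0.0054 without Tyr19Phe replicate 3), and that of RRM1 from -0.042 to 0.0071 between the perturbed groups. The log2 ratio of SAMHD1 to RRM2 in Tyr19Phe against WT, -0.03 with all libraries, ranged from -0.094 to 0.079, with the positive value without Tyr19Phe replicate 3. A window of 10 Mb moved 1 of 27 neighbour medians by more than the member's SE, that of RRM2 between the perturbed groups, from -0.17 to -0.08.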
